A study of Mus musculus with 64 samples.

Results

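Extracellular matrix genes encode the collagens, glycoproteins and proteoglycans that surround cells, the enzymes that cross-link or cut them, the inhibitors of those enzymes and the receptors that sense collagen. The 52 genes described here were chosen by symbol, with earlier results of these data known. All 52 were found among the 48440 rows of each of 2 mRNA tables, of liver and of gonadal adipose tissue. A mean signal of at least 10 was reached by 49 of them in liver, among 15180 genes, and by 52 in adipose tissue, among 17394 genes. The 3 genes below that level in liver were Cilp, Lox and Mmp3.

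The mice were of the 129S6/SvEvTac strain and formed 4 groups: wild type (WT) females, WT males, and females and males that express human AS3MT, the enzyme that methylates arsenic, called humanized here. Every group drank water with inorganic arsenic at 400 ppb for 4 weeks, so there was no unexposed control and nothing here compares exposed with unexposed tissue. Liver had 3 libraries per group (replicates 1 to 3), and adipose tissue had 3 per group (replicates 4 to 6) except WT males with 2 (replicates 4 and 5). The labels give neither the animals' age nor whether the titles' replicate numbers stand for separate cages or litters, so the tests measure the spread between these libraries. Names of the small RNA libraries, used further below, repeat animal tags across the tissues, while the mRNA library names carry no such tag. The tables of the 2 tissues were also normalized separately, so no test was made between tissues.

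Collagen fibrils of types I, III and V give tissue its tensile strength, while type IV collagen, laminins, nidogens and perlecan form the basement membrane under epithelia and around vessels and adipocytes. Lysyl oxidases cross-link collagen and elastin, matrix metalloproteinases cut matrix proteins, and TIMPs inhibit the metalloproteinases. In liver, stellate cells are the main source of fibrillar collagen in fibrosis, and hepatocytes make plasma fibronectin and type XVIII collagen. In gonadal fat, adipocytes and their progenitors deposit a matrix that is remodelled as the depot expands.

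The normalized signal summed to 77307210 to 95381805 per liver library and to 83100312 to 90417259 per adipose library. The matrix genes took 0.308% to 0.409% of it in liver and 1.77% to 3.84% in adipose tissue. Mouse As3mt checked the genotype labels, with a liver signal of 2624 to 6111 in WT against 0 to 5.98 in humanized libraries, and 1218 to 1737 against 0 to 5.33 in adipose tissue. Mouse Borcs7 was also nearly absent from humanized libraries, at 620 to 837 in WT against 8.54 to 15.1 in humanized liver and 994 to 1507 against 13.6 to 20.5 in adipose tissue, so the genotypes differed in more than As3mt. Xist and 4 Y-linked genes matched the labelled sexes, with a Y-linked trace of at most 220 in the WT female replicate 5 adipose library. Summed hepatocyte markers were 6957490 to 12690300 in liver, and summed adipocyte markers 1678450 to 3078610 in adipose tissue. In adipose tissue the hepatocyte markers summed to 241420 in WT male replicate 5 and to 2308 to 20133 in the other 10 libraries, and the male genotype results in fat are therefore also given without it. Skeletal muscle markers summed to 34882 in WT female replicate 4 and 33954 in WT male replicate 4, against 1041 to 18253 in the other adipose libraries. Results without WT male replicate 5 thus keep a WT male library with high muscle markers. The part of muscle in the matrix values was not tested. In bulk RNA, fewer cells of a type and less RNA per cell cannot be told apart.

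The sequences shown beside these results are the start regions of 3 collagen genes and the miR-29 family, which is known to target many collagen mRNAs. Windows from 250 bases before to 50 after the gene start were taken from RefSeq (GRCm38.p6). Col4a1 and Col4a2 encode the chains of type IV collagen and stand head to head on chromosome 8, and their windows share 78 bases (chr8:11312777-11312854), in capitals, as reverse complements of each other. The first window is chr8:11312777-11313076 on the minus strand and the second chr8:11312555-11312854 on the plus strand. Both are shown because the pair of genes is read from this stretch in opposite directions.
Col4a1: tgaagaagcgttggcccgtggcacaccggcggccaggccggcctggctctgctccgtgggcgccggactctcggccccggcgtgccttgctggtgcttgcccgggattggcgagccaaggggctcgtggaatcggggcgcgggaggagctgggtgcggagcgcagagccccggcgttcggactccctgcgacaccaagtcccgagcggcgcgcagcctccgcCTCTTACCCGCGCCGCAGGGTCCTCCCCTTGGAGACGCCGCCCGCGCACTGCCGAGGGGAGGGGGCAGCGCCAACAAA
Col4a2: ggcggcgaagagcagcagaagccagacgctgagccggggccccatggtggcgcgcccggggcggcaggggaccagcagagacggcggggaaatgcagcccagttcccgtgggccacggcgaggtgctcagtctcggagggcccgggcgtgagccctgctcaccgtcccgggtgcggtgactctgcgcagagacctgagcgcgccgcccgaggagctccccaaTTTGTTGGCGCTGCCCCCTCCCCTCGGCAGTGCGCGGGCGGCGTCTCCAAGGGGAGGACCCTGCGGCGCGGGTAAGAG

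Col5a3, a chain of type V collagen, had the largest sex difference of the 49 genes in liver, as given below. Its window is chr9:20815018-20815317 on the minus strand, with capitals on 1 match to CCAAT and 3 to GGGCGG, read on both strands.
Col5a3: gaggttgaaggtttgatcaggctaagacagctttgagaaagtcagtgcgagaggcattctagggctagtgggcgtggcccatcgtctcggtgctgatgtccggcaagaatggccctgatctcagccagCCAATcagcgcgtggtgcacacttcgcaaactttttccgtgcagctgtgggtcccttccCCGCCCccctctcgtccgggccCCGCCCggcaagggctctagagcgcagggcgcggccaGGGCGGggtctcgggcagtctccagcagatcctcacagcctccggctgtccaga
Of the 52 genes, 35 had such a window in the table used. On either strand, TATAAA occurred in 7 of the 35 windows (20%) against 15.7% of all 27025 genes' windows, and CCAAT in 14 (40%) against 41.1%. GGGCGG occurred in 22 (62.9%) against 38.2%, and TGANTCA, the letters bound by AP-1 factors, in 5 (14.3%) against 8.97%. TATAAA and TGANTCA had 0 matches in the Col5a3 window. The 27025 were all genes with a window, with no selection by gene type or expression, so differences of gene type were not taken into account. These counts are matches of letters and say nothing of binding.

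The mature miR-29 sequences follow, with the seed (bases 2 to 8) in capitals, because that shared seed is what defines the family.
miR-29a-3p: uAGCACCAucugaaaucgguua
miR-29b-3p: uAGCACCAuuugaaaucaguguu
miR-29c-3p: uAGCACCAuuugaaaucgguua
All 3 share the seed AGCACCA, whose match in a target reads TGGTGCT as DNA. From the 5′ end, miR-29a and miR-29c differ at 1 of 22 positions, miR-29b and miR-29c at 3, and miR-29a and miR-29b at 4. In RefSeq, miR-29a lies at chr6:31062673-31062694 and 1 copy of miR-29b at chr6:31063025-31063047, both on the minus strand. The other copy of miR-29b lies at chr1:195037091-195037113 and miR-29c at chr1:195037600-195037621, both on the plus strand.

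Humanized and WT libraries were compared first in gonadal fat, within each sex and then across the sexes. Most matrix genes had higher values in humanized fat: 45 of 52 over both sexes, 43 of 52 in males and 39 of 52 in females. No single gene passed limma's test after Benjamini-Hochberg adjustment over all genes (adjusted p under 0.05, "called" below). The median log2 difference of the 52 was 0.39 over both sexes, 0.44 in males and 0.33 in females, beside medians within 0.01 of 0 over all genes tested. By library, the median deviation of the 52 genes from their mean over the tissue was -0.51, -0.07 and -0.18 in WT females and 0.29, -0.13 and 0.07 in humanized females. It was 0.04 and -0.36 in WT males and 0.67, -0.02 and 0.25 in humanized males. Without humanized male replicate 4, at 0.67, the median log2 difference in males fell to 0.27. The genotypes overlapped in both sexes, and the SD between libraries of 1 group was 0.27 on the same log2 scale. The share of all genes called was 0.023% over both sexes, 0.0172% in males and 0.0172% in females, so a lack of calls among 52 genes was also what most genes showed. At an unadjusted p under 0.05, 14 of the 52 were higher and 1 lower over both sexes, where 7.11% of all genes passed in either direction. In males 13 were higher and 2 lower against 8.41% of all genes, and in females 9 were higher and 0 lower against 5.25%. Because the genes were chosen with earlier results of these data known, these and the later counts beside all genes are not independent of that choice.

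**Figure D1:**
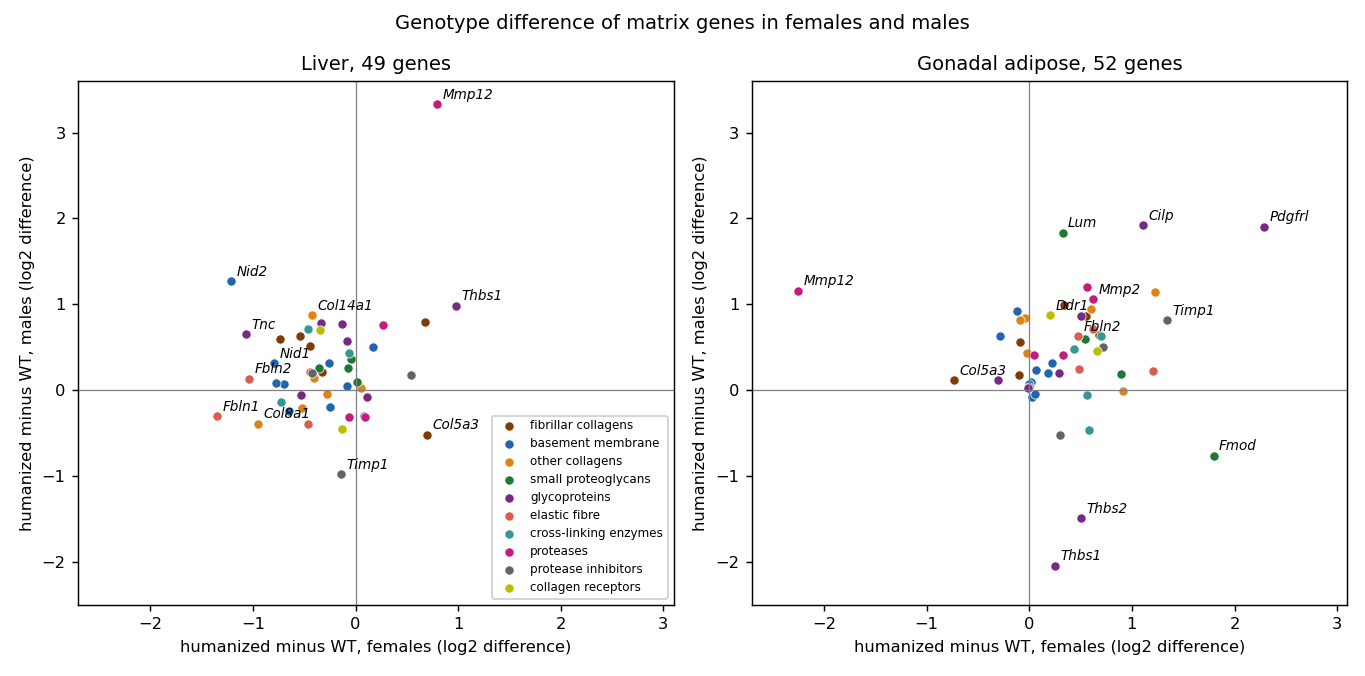
Log2 difference of humanized minus WT libraries for each matrix gene in females (horizontal axis) and in males (vertical axis), in liver (left, 49 genes) and gonadal adipose tissue (right, 52 genes), coloured by the gene's role. In adipose tissue most points lie above and to the right of 0, with Cilp and Pdgfrl far out, while in liver most lie left of the vertical line, with Nid2 at -1.21 in females and 1.27 in males.

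Cilp, cartilage intermediate layer protein, a secreted matrix protein, had the smallest p of the 52 over both sexes. Its signal was 1142, 1021 and 1006 in WT females and 2900, 1935 and 2088 in humanized females, without overlap. In males it was 2519 and 1091 in WT and 5960, 4755 and 8776 in humanized libraries, again without overlap. On the log2 scale humanized minus WT was 1.51 ± 0.24 (SE) over both sexes (2.86-fold, limma adjusted p = 0.216), 1.92 ± 0.35 in males and 1.11 ± 0.32 in females. Without WT male replicate 4, whose value was the higher of the WT male pair, it was 1.82 with a limma adjusted p of 0.0347, which is a call. Without WT male replicate 5, the library with hepatocyte RNA, the difference over both sexes was 1.21 with a limma adjusted p of 0.19.

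Pdgfrl, a secreted protein that resembles the ligand-binding part of the PDGF receptor, was the 1 gene of the 52 whose humanized libraries of both sexes all stood above all WT libraries, as for 0.316% of all genes. Its signal was 68.0, 61.5 and 49.8 in WT females and 236, 405 and 264 in humanized females. It was 43.5 and 188 in WT males and 340, 311 and 382 in humanized males. Over both sexes the log2 difference was 2.10 ± 0.35 (SE, 4.28-fold, limma adjusted p = 0.295), and it was 2.29 ± 0.47 in females and 1.90 ± 0.53 in males. The WT male value of 188 came from replicate 5. Without that library the difference over both sexes was 2.62 with a limma adjusted p of 0.0139, and in females it passed without either WT male library (adjusted p = 0.0468 and 0.0490), which leaves the female values as they are and changes only the spread and the genes tested.

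Among the other glycoproteins, thrombospondins went the other way in males. Thbs1, an activator of latent TGF-beta, had signals of 63344 and 52875 in WT males and of 17704, 11019 and 14190 in humanized males, with no overlap. Female values were 11452 to 16566 in WT and 9871 to 29580 in humanized libraries and overlapped. The WT male pair thus stood above the other 9 libraries. The log2 difference was -2.04 ± 0.40 (SE) in males (limma adjusted p = 0.194) and 0.25 ± 0.36 in females, and the difference between the sexes was -2.29 ± 0.54 (adjusted p = 0.597). Thbs2, a related collagen-fibril regulator, was 30858 and 35632 in WT males and 6516 to 20519 in humanized males, a log2 difference of -1.49 ± 0.53 (limma adjusted p = 0.480). Humanized males had lower values than WT males without overlap for these 2 of the 52 genes, beside 12.1% of all genes.

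Fibronectin (Fn1), which links cells to collagen, ranged from 72576 to 101158 in humanized males and was 48238 and 45071 in WT males. In females it ranged from 28839 to 54887 in WT and from 52912 to 64142 in humanized libraries, which overlapped. Its log2 difference over both sexes was 0.68 ± 0.17 (SE, limma adjusted p = 0.454). Tnxb, tenascin-X, kept the narrowest range of the 52 genes in adipose tissue, from 27899 to 46231 (1.66-fold). Sparc, a collagen-binding protein, Postn, periostin, and Tnc, tenascin-C, overlapped between the genotypes in both sexes.

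The elastic fibre genes were higher in humanized fat for 4 of 4 over both sexes, with a median log2 difference of 0.61. Fbln2, fibulin-2, was 17700, 16414 and 22166 in WT females and 26214, 28845 and 22794 in humanized females. In males it was 20266 and 25631 in WT and 39393, 32582 and 34076 in humanized libraries. Neither sex overlapped, and the log2 difference was 0.55 ± 0.12 (SE) over both sexes (limma adjusted p = 0.434), 0.63 ± 0.17 in males and 0.47 ± 0.15 in females. Eln, elastin, did not overlap in females, at 13552 to 14494 in WT and 15314 to 23381 in humanized libraries. Fbn1, fibrillin-1, and Fbln1, fibulin-1, overlapped in both sexes.

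The 4 small leucine-rich proteoglycans, which bind collagen and set fibril width, were all higher over both sexes, with a median log2 difference of 0.56. Lum, lumican, was 2746 and 2571 in WT males and 15399, 5848 and 9429 in humanized males, a log2 difference of 1.83 ± 0.40 (SE, limma adjusted p = 0.258). In females it overlapped, at 4440 to 9458 in WT and 7335 to 10221 in humanized libraries. Fmod, fibromodulin, showed the reverse: it did not overlap in females, at 696, 1556 and 715 in WT and 2260, 4380 and 3289 in humanized libraries. Its log2 difference was 1.80 ± 0.61 in females (limma adjusted p = 0.933), and in males it overlapped at 732 to 4725. Between the sexes, the genotype difference was 1.51 higher in males for Lum and 2.56 lower in males for Fmod on the log2 scale, and neither passed (limma adjusted p = 0.674 and 0.676). Bgn, biglycan, was 24742 and 24002 in WT males and 29917 to 44585 in humanized males. Dcn, decorin, overlapped in both sexes.

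Fibrillar collagens were higher for 6 of 6 in males and 3 of 6 in females. Col1a1, a chain of type I collagen, was 57598 and 40366 in WT males and 133682, 70310 and 72013 in humanized males. Col1a2, its partner chain, was 57547 and 64879 in WT males and 68920 to 137752 in humanized males, and Col3a1, type III collagen, was 179837 and 110545 against 191582 to 369444. These 3 did not overlap in males, but all overlapped in females. Over both sexes the log2 difference was 0.71 ± 0.25 (SE) for Col1a1, with a limma adjusted p of 0.591. The type V chains Col5a1, Col5a2 and Col5a3 overlapped between genotypes in both sexes.

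The other collagens were higher for 6 of 6 over both sexes, with a median log2 difference of 0.43. Col14a1, type XIV collagen, which sits on fibril surfaces, was 7685 and 3971 in WT males and 7756, 13966 and 16619 in humanized males. In females it was 3116, 8069 and 3514 in WT and 6932, 11372 and 14416 in humanized libraries, with 1 WT value inside the humanized range. Its log2 difference over both sexes was 1.18 ± 0.34 (SE, limma adjusted p = 0.495). Col6a1, type VI collagen, was 70000 and 40957 in WT males and 73100 to 127688 in humanized males. Col6a2, Col6a3, Col8a1 and Col12a1 overlapped in both sexes.

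Basement membrane genes were higher in humanized fat for 8 of 9 over both sexes, with a median log2 difference of 0.15. Col4a1 and Col4a2, whose shared start region is shown above, were 144374 and 320943, and 95575 and 208082, in the WT male pair, which spanned nearly the whole range of the other groups. Col15a1 and Lama2, a collagen and a laminin chain of basement membranes, did not overlap in males. Col18a1, Lamb1, Nid1, Nid2 and Hspg2, perlecan, overlapped between genotypes in both sexes.

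The 4 lysyl oxidase genes were higher over both sexes, with a median log2 difference of 0.35. Loxl1, which cross-links elastin, was 6183, 9430 and 8147 in WT females and 12749, 11372 and 14060 in humanized females, without overlap. In males it overlapped, at 10596 and 6531 in WT and 9963 to 17520 in humanized libraries. Its log2 difference over both sexes was 0.67 ± 0.19 (SE, limma adjusted p = 0.490). Loxl3 did not overlap in males, at 901 and 1193 in WT and 1283 to 1678 in humanized libraries. Lox and Loxl2 overlapped in both sexes.

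Of the proteases, Mmp2, a gelatinase, did not overlap in either sex. Its signal was 5561, 8533 and 5729 in WT females and 10384, 9487 and 10000 in humanized females, and 4390 and 6010 in WT males against 17958, 8249 and 8245 in humanized males. The log2 difference over both sexes was 0.84 ± 0.22 (SE, limma adjusted p = 0.462). Mmp12, macrophage elastase, was the most variable of the 52 genes in fat: it ran from 4.79 in humanized female replicate 5 to 41027 in humanized male replicate 4. Its group values overlapped throughout, and in females its log2 difference of -2.25 became 0.15 without that humanized female library. The summed macrophage markers were also highest in humanized male replicate 4, at 304940 against 51201 to 151521 in the other 10 libraries. Their part in the Mmp12 value was not tested. Mmp14, an activator of Mmp2, overlapped between genotypes in both sexes.

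The inhibitors were higher for 3 of 3 in females and 2 of 3 in males. Timp1, an inhibitor of metalloproteinases, was 39.9, 191 and 161 in WT females and 481, 205 and 209 in humanized females, without overlap. Its male values overlapped, with 1515 in humanized male replicate 4 and 178 to 276 in the other 4 male libraries. Timp2 did not overlap in males, at 30795 and 35481 in WT and 44394 to 49631 in humanized libraries. Timp3 did not overlap in females, at 43762 to 50511 in WT and 52201 to 70041 in humanized libraries, while its male values overlapped.

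Of the collagen receptors, Ddr1 had the smallest p of the 52 in males. Its signal was 5112 and 4575 in WT males and 9315, 8194 and 9052 in humanized males, with no overlap. In females it was 5449 to 7743 in WT and 6809 to 8068 in humanized libraries, which overlapped. Humanized minus WT was 0.87 ± 0.15 (SE, log2) in males (limma adjusted p = 0.174) and 0.54 ± 0.10 over both sexes (adjusted p = 0.333), and between the sexes it differed by 0.67 (adjusted p = 0.637). Ddr2, the other collagen receptor, was 11071 and 7182 in WT males and 11280 to 12879 in humanized males.

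Counted together, 19 of the 52 genes had all humanized male values above both WT male values, beside 11.2% of all genes. They were Col1a1, Col1a2, Col3a1, Col6a1, Col14a1, Col15a1, Lama2, Lum, Bgn, Fn1, Cilp, Pdgfrl, Tnxb, Fbln2, Loxl3, Mmp2, Timp2, Ddr1 and Ddr2. In females 9 did so, beside 5.54% of all genes, and these were Cilp, Pdgfrl, Fmod, Eln, Fbln2, Loxl1, Mmp2, Timp1 and Timp3. Cilp, Pdgfrl, Fbln2 and Mmp2 were on both lists. Between the sexes the genotype difference was called for 0 of 52 genes and 0% of all genes, and at an unadjusted p under 0.05 limma found 2 genes higher and 3 lower, beside 6.8% of all genes.

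Without WT male replicate 5, the library with hepatocyte RNA, the WT males were 1 library, assumed to vary like the other groups. That library was replicate 4, whose muscle marker sum was high, at 33954. Higher values in humanized fat were then seen for 34 of 52 genes in males and 39 of 52 over both sexes. The median log2 difference was 0.30 in males and 0.27 over both sexes. At an unadjusted p under 0.05, limma found 7 higher and 1 lower in males, beside 7.73% of all genes, and 12 higher and 1 lower over both sexes, beside 7.93%. In males the log2 difference was 0.79 ± 0.19 (SE) for Ddr1, 1.79 ± 0.53 for Lum, 0.80 ± 0.21 for Fbln2, 1.32 ± 0.33 for Cilp and 2.95 ± 0.39 for Pdgfrl. It was -2.17 ± 0.53 for Thbs1 and -1.39 ± 0.71 for Thbs2, and the limma adjusted p of these 7 ran from 0.0753 to 0.686. All humanized male values stood above the 1 remaining WT male library for 23 of the 52 genes and for 28% of all genes. The median genotype difference between the sexes, 0.08 with all libraries, was -0.04.

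**Figure D2:**
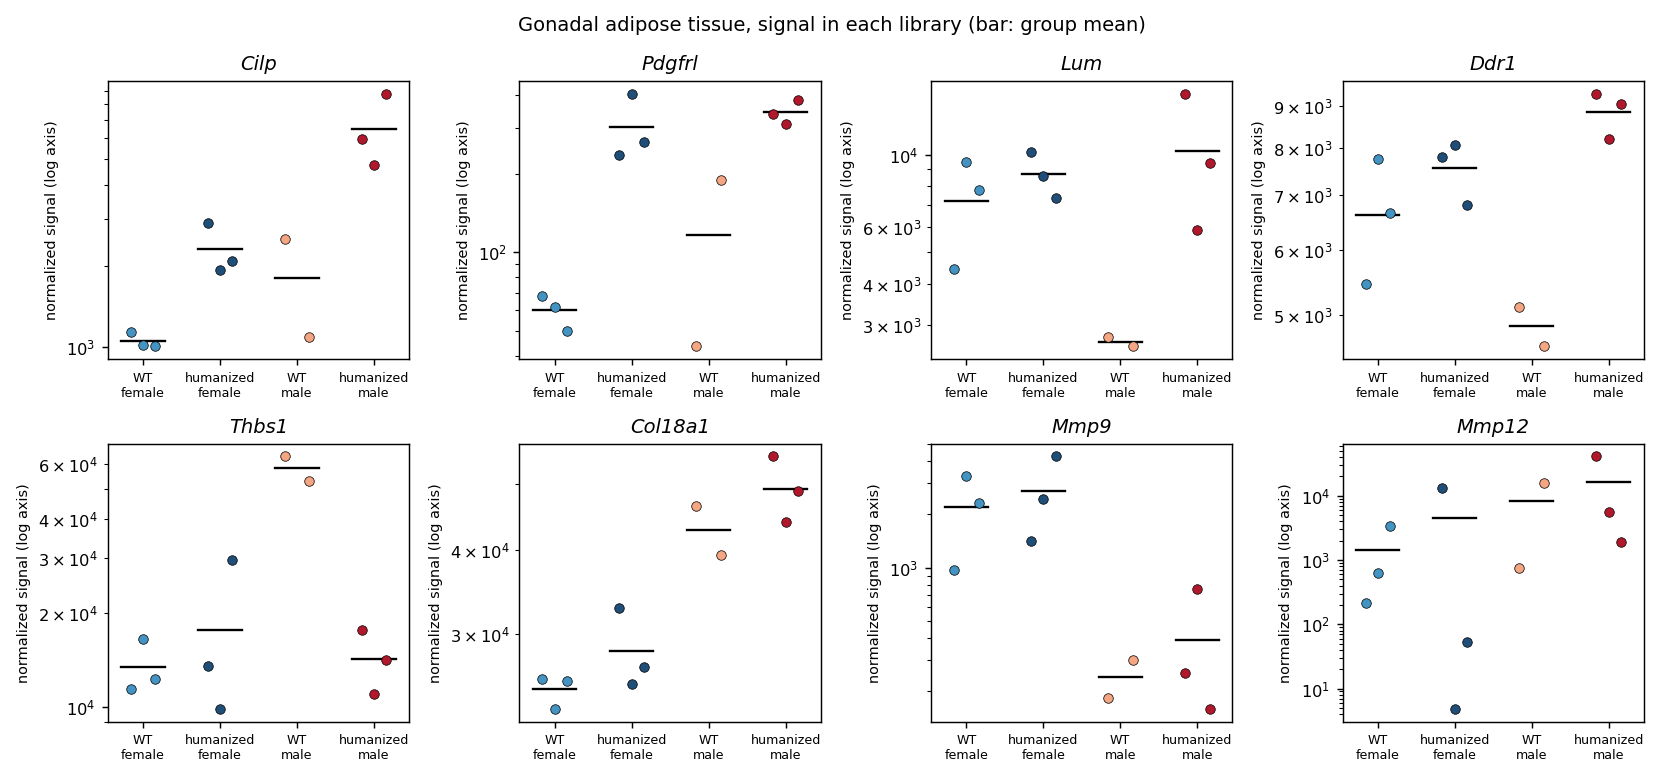
Normalized signal (log axis) of the matrix genes the adipose results turn on, in each library of the 4 groups, with a bar at the group mean. Cilp and Pdgfrl are higher in humanized libraries of both sexes, Thbs1 is highest in the 2 WT male libraries, and Col18a1 and Mmp9 separate males from females.

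The fibroblast and stellate markers, a list of 15 other genes, were higher in humanized fat for 15 of 15 over both sexes, with a median log2 difference of 0.31 and 0 calls. Their summed signal was 860957 to 1115700 in WT females, 913323 to 1312200 in humanized females, 852794 and 1049410 in WT males and 732235 to 1215210 in humanized males, and 0 of the 15 were at 0. Macrophage markers were higher for 9 of 11 and adipocyte markers lower for 7 of 10, while mesothelial markers were higher for 11 of 11 in females and lower for 10 of 11 in males, all with 0 calls. Humanized male replicate 4 had the lowest adipocyte marker sum, at 1678450 against 2432950 to 3078610 in the other adipose libraries. It also had the lowest fibroblast and stellate sum and the highest share of matrix genes, 3.84%. The part of these cell types in the matrix values was not tested.

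**Figure D3:**
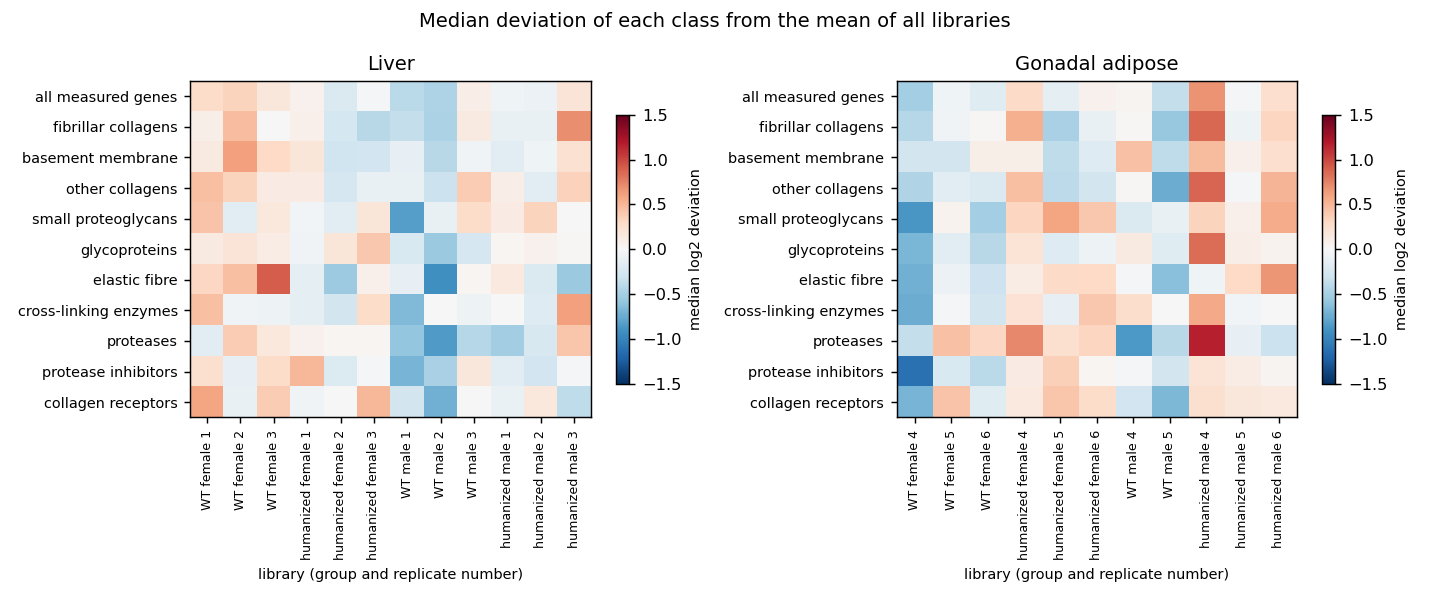
Median log2 deviation of each class of matrix genes from its mean over all libraries of the tissue, by library (columns) and class (rows), with all measured matrix genes in the top row. Red is above and blue below the mean, and single libraries such as humanized male replicate 4 in adipose tissue stand out across several classes.

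Sex was compared over both genotypes. In fat, 2 of the 52 genes were called, 1 in each direction, where 0.42% of all genes were called. At an unadjusted p under 0.05, 9 were higher and 5 lower in males, beside 12.5% of all genes.

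Col18a1, whose product is cut to release endostatin, rose in males. Its signal was 25753, 23217 and 25590 in WT females and 32772, 25269 and 26810 in humanized females. It was 46399 and 39249 in WT males and 55016, 43946 and 48819 in humanized males. All 5 male libraries stood above all 6 female ones, as for 0.747% of all genes. Male minus female was 0.79 ± 0.10 on the log2 scale (SE, 1.73-fold, limma adjusted p = 0.0111), and it was 0.73 with an adjusted p of 0.0551 without WT male replicate 4.

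Mmp9, a gelatinase made by neutrophils and macrophages, was lower in males. It was 974, 3293 and 2314 in WT females and 1414, 2461 and 4264 in humanized females. In males it was 184 and 300 in WT and 253, 760 and 158 in humanized libraries. All male values stood below all female ones, as for 1.2% of all genes, and the log2 difference was -3.01 ± 0.48 (SE, limma adjusted p = 0.0361). That call was lost without WT female replicate 5 or 6, humanized female replicate 5 or 6, either WT male library, or humanized male replicate 4 or 6, each left out in turn, at limma adjusted p from 0.0672 to 0.119. The measured neutrophil markers were higher in males for 2 of 5 and the macrophage markers for 9 of 11, with 0 calls.

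Other genes of the class had differences by sex in fat that did not pass. Cilp was 1.06 ± 0.24 (SE) higher in males on the log2 scale (limma adjusted p = 0.110). Bgn was 0.61 ± 0.16 higher (adjusted p = 0.149) and Thbs1 0.98 ± 0.27 higher (adjusted p = 0.175), the latter with its WT male pair at the top. Mmp3, stromelysin-1, which activates other metalloproteinases, was 1079 to 2495 in WT females, 1511 to 3747 in humanized females, 250 and 208 in WT males and 1997, 456 and 159 in humanized males. Its log2 difference was -2.34 (limma adjusted p = 0.142). Without humanized female replicate 6 Thbs1 was called (log2 difference 1.20, adjusted p = 0.0342), and without WT male replicate 5 Cilp was (1.36, adjusted p = 0.0319). Without humanized male replicate 4 Mmp3 was called (-2.82, adjusted p = 0.0283).

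In liver most matrix genes had lower values in humanized females than in WT females, and the male values leaned the other way by about the SD between libraries, with overlap. Higher values in humanized libraries were seen for 33 of 49 genes in males and for 12 of 49 in females, and the median log2 difference was 0.20 in males and -0.33 in females, beside -0.01 over all genes in each sex. By library, the median deviation of the 49 genes was 0.28, 0.33 and 0.18 in WT females and 0.06, -0.22 and -0.02 in humanized females, without overlap. It was -0.40, -0.46 and 0.10 in WT males and -0.07, -0.08 and 0.19 in humanized males, which overlapped. The SD between libraries of 1 group was 0.19, and without WT male replicate 2 the male median fell to 0.03. Libraries labelled as made by polyA enrichment were more frequent in WT than in humanized liver. Only the fitted differences account for preparation, while the library values and overlaps do not. No gene was called in males (0.0329% of all genes were), in females (0.0198%), over both sexes (0.0329%) or between the sexes (0.00659%). At an unadjusted p under 0.05, limma found 9 higher and 0 lower in males, beside 7.13% of all genes, and 0 higher and 3 lower in females, beside 5.66%. Between the sexes, the male difference exceeded the female one for 40 of 49 genes, with a median of 0.54, 9 of them at an unadjusted p under 0.05 and 0 in the other direction, beside 8.18% of all genes. Over both sexes 23 of 49 were higher and the median was -0.05, with 1 gene, elastin, lower at an unadjusted p under 0.05, beside 5.07% of all genes.

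Nidogen-2 (Nid2), which links laminin to type IV collagen in basement membranes, had the smallest p of the 49 genes for the genotype difference between the sexes. Its signal was 396, 547 and 388 in WT females and 216, 176 and 174 in humanized females. In males it was 127, 98.2 and 281 in WT and 346, 456 and 307 in humanized libraries. WT females and humanized males thus had the higher values, without overlap within either sex. The log2 difference was -1.21 ± 0.37 (SE) in females (limma adjusted p = 0.786) and 1.27 ± 0.37 in males (adjusted p = 0.557), and between the sexes it was 2.48 ± 0.50 (adjusted p = 0.585). Without WT male replicate 3, at 281, it was 2.94 with a limma adjusted p of 0.0241, which is a call. The value left out was the WT male value nearest the humanized males, so leaving it out had to widen the difference. No other alternative called Nid2, and the share of all genes called in that setting was not computed. Rtraf overlaps the Nid2 gene in the annotation and had a liver signal of 2342 to 3591, and the strand of counting is not given in the sources used here, so reads of these genes may not be separated.

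Nid1, the related nidogen, was 1148, 1294 and 1746 in WT females and 1016, 742 and 666 in humanized females, with no overlap and a log2 difference of -0.80 ± 0.31 (SE, limma adjusted p = 0.786). Its male values overlapped. The basement membrane genes were lower in humanized females for 8 of 9, with a median log2 difference of -0.65, and higher in humanized males for 7 of 9, with a median of 0.08. The male difference exceeded the female one for 9 of 9. Col4a2 was 1105, 1940 and 1767 in WT females and 1394, 691 and 942 in humanized females, which overlapped, and Col4a1 was 1864 to 3133 against 1329 to 2433.

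Type I collagen transcripts were lower in humanized females without overlap. Col1a1 was 334, 434 and 455 in WT females and 288, 194 and 203 in humanized females. Col1a2 was 822 to 979 in WT and 577 to 729 in humanized females. In males both overlapped, with 788 and 1144 in humanized male replicate 3 as the highest values of the tissue. The genotype difference between the sexes was 0.95 for Col1a2 on the log2 scale (limma adjusted p = 0.585).

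In all, 10 of the 49 genes had all humanized female values below all WT female values, beside 6.71% of all genes. They were Col1a1, Col1a2, Col6a2, Col14a1, Bgn, Fbn1, Loxl1, Timp3, Nid1 and Nid2. Col14a1 was 4302, 3826 and 3435 in WT females and 3281, 2148 and 3165 in humanized females, and in males it was 1170, 1504 and 3109 against 3369, 2746 and 3498, which overlapped. The 4 elastic fibre genes were lower in humanized females for 4 of 4, with a median of -0.75, and Fbln2 had a log2 difference of -1.04 ± 0.48 (SE) with a single WT value of 519 above 83.3 to 218 in the other 5 female libraries.

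In males 5 of the 49 genes had all humanized values above all WT values, beside 5.34% of all genes: Nid2, Sparc, Ddr2, Loxl2 and Thbs2. Sparc was 3117, 2527 and 4248 in WT males and 4680, 5875 and 4362 in humanized males, a log2 difference of 0.57 ± 0.19 (SE, limma adjusted p = 0.608). Ddr2 was 155, 130 and 197 in WT males and 228.8, 281 and 292.4 in humanized males, a log2 difference of 0.70 ± 0.26 (limma adjusted p = 0.640). For Ddr2 the WT male values were the lowest of the 4 groups. Loxl2, a lysyl oxidase of stromal cells, was 76.3 to 126 in WT and 134 to 166 in humanized males, and Thbs2 was 75.1 to 90.6 against 127 to 169. Postn had a log2 difference of 0.77 ± 0.27 (limma adjusted p = 0.640) but overlapped, at 233 to 534 in WT and 508 to 685 in humanized males.

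Fibronectin and type XVIII collagen transcripts, which hepatocytes make, differed little. Fn1 was 108681 to 175154 in WT females, 125334 to 179018 in humanized females, 116716 to 172092 in WT males and 109407 to 130793 in humanized males, and all groups overlapped. Col18a1 ran from 96825 to 145897 over the 12 libraries, the narrowest range of the measured genes (1.51-fold). Eln, elastin, was 206 to 279 in WT and 156 to 220 in humanized females, and 181 to 295 against 163 to 187 in males, a log2 difference over both sexes of -0.43 (limma adjusted p = 0.880).

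Among liver proteases and inhibitors, Mmp12 rested on 1 library. It was 967 in humanized male replicate 3 and 4.19 to 45.5 in the other 11 libraries, and the summed macrophage markers of that library, 19594, lay within the 13301 to 38033 of the tissue. Mmp14 was 3010 to 4555 in WT females and 3996 to 4074 in humanized females, and 1934 to 5291 against 2013 to 2669 in males. Mmp2 and Mmp9 overlapped between genotypes in both sexes. Timp3 was 1976 to 2666 in WT females and 1389 to 1838 in humanized females, without overlap, while Timp2 overlapped in both sexes. Thbs1 overlapped in both sexes, with 148 in humanized female replicate 2 and 140 in humanized male replicate 3 as its high values.

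The 3 genes under the mean of 10 in liver were not tested. Lox, the founding lysyl oxidase, was 9.65, 18.0 and 13.0 in WT females and 7.20, 1.87 and 2.13 in humanized females, and 2.11 to 13.4 in males. Cilp was 0 to 19.3, and Mmp3 was 0 to 2.98.

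The summed fibroblast and stellate markers of liver were 16116 to 20037 in WT females, 12998 to 17767 in humanized females, 10093 to 19436 in WT males and 15193 to 20133 in humanized males, with 0 of 15 at 0. They were higher in humanized males for 9 of 14 measured markers and lower in humanized females for 10 of 14, the same directions as the matrix genes. Endothelial markers were higher in humanized males for 10 of 10 and lower in humanized females for 8 of 10. None of these markers was called, and their part in the matrix values was not tested.

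**Figure D4:**
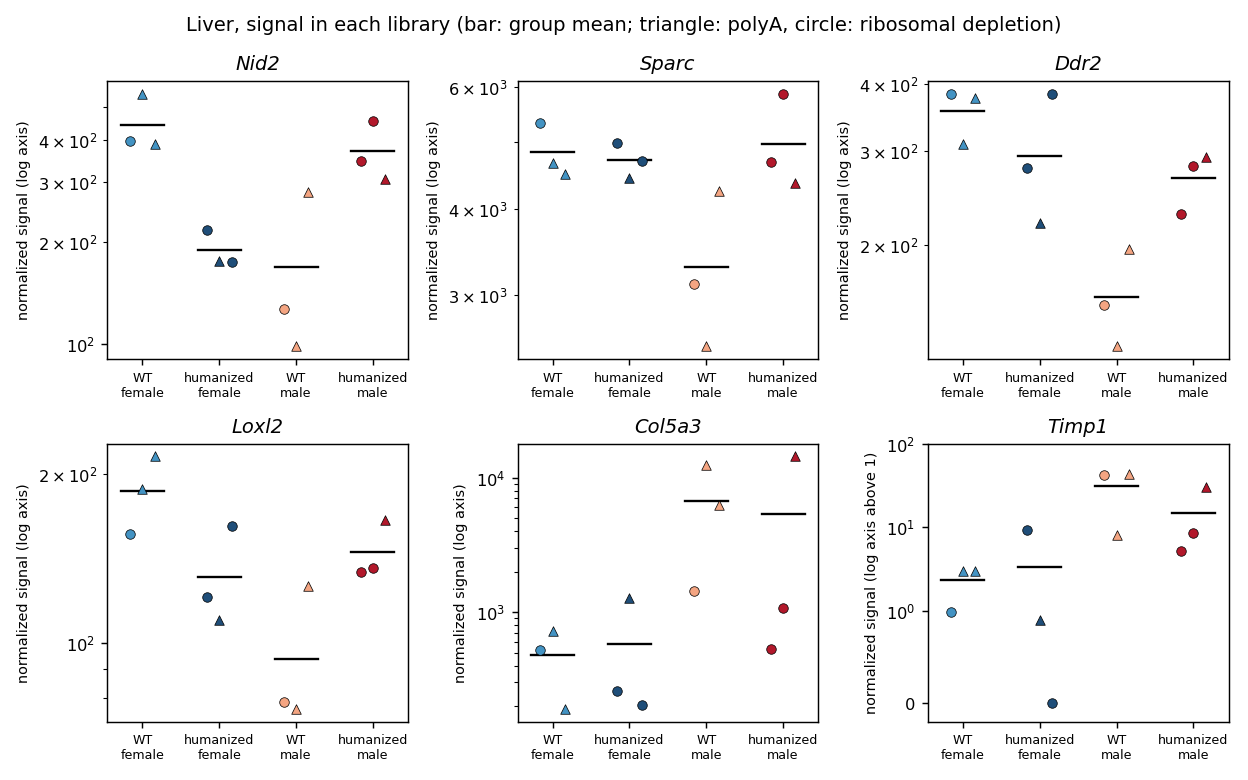
Normalized signal of the matrix genes the liver results turn on, in each library of the 4 groups, with a bar at the group mean, on a log axis (for Timp1 logarithmic above 1). Nid2 is high in WT females and humanized males and low in the other 2 groups, and Col5a3 spans 2 levels among males, with 3 libraries from 6298 to 14376 and 3 from 535 to 1440.

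By sex, 3 of 49 matrix genes were called in liver, 2 higher and 1 lower in males, where 9.59% of all genes were called. At an unadjusted p under 0.05, 2 were higher and 9 lower, beside 26.1% of all genes, and 34 of 49 were lower in males, with a median log2 difference of -0.24. That median was -0.33 in ribosomal depletion libraries alone and -0.02 in polyA libraries alone. A sex by preparation term was then added to the limma model, a test chosen after these values were seen. It was called for 0 of the 49 genes and 0% of all genes. The male minus female difference was higher in polyA libraries for 12 of the 49 and lower for 1, Mmp14, at an unadjusted p under 0.05, beside 4.99% of all genes in either direction. The 12 included Loxl1, Tnxb, Col5a1, Col1a2 and Timp3.

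Col5a3 rose in males. Its signal was 527, 725 and 190 in WT females and 259, 1266 and 204 in humanized females. In males it was 1440, 12383 and 6298 in WT and 535, 1074 and 14376 in humanized libraries, which overlapped the female values at their lower end. Male minus female was 2.92 ± 0.59 on the log2 scale (SE, 7.57-fold, limma adjusted p = 0.0136). The male values followed the labelled preparation: the 3 polyA libraries had 6298 to 14376 and the 3 ribosomal depletion libraries 535 to 1440. In females the polyA libraries had 190 to 1266 and the depletion libraries 204 to 527. Among polyA libraries alone the difference was 4.04 (limma adjusted p = 0.0688) and among depletion libraries alone 1.58 (adjusted p = 0.0697), and the direction was the same in both. The sizes differed by 2.45 ± 1.04 (SE, log2) in the model with a sex by preparation term, which did not pass (limma adjusted p = 0.991, unadjusted p = 0.0414). The preparation itself was called for 0 of 15180 genes by limma, and for Col5a3 polyA minus depletion was 2.20 on the log2 scale (adjusted p = 0.993). The preparation labels were not checked in another way. The window of Col5a3 shown above held no TATAAA and 3 matches to GGGCGG, and a link of these letters to its signal was not tested.

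Timp1 also rose in males, at low levels. It was 0.981, 3.01 and 3.00 in WT females and 9.20, 0.899 and 0 in humanized females, against 41.6, 8.12 and 43.5 in WT males and 5.16, 8.54 and 30.0 in humanized males. The log2 difference was 2.61 ± 0.71 (SE, limma adjusted p = 0.0454), with 1 humanized female library inside the male range. The Timp1 gene overlaps Syn1 in the annotation, whose liver signal was 8.95 to 38.9. The call held in 5 of 21 alternatives, with adjusted p from 0.0174 to 0.224.

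Ddr2 fell in males. It was 383, 309 and 377 in WT females, 278, 220 and 383 in humanized females, 155, 130 and 197 in WT males and 228.8, 281 and 292.4 in humanized males. The log2 difference was -0.63 ± 0.17 (SE, 1.55-fold lower, limma adjusted p = 0.0475), and humanized males overlapped humanized females. The call held in 9 of 22 alternatives, with adjusted p from 0.0243 to 0.655.

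Cell type markers also differed by sex in liver. Endothelial markers were lower in males for 10 of 10, 8 of them called, and their sum was 11179 to 15483 in females and 6694 to 9533 in males. Macrophage markers were lower for 11 of 11, with 6 called, and fibroblast and stellate markers for 11 of 14, with 1 called (Thy1). These counts stand beside the 9.59% of all genes called for sex, and the fibroblast and stellate share was smaller than that. Cd3g and Cd3e of the lymphocyte list were called lower in males. Krt8 and Krt18 of the mesothelial list were called higher in males. The part of these cell types in the lower matrix values of males was not tested.

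The other genes of the matrix pathway, in 4 lists chosen by function, had calls only for sex in liver among these comparisons. These counts stand beside the 9.59% of all genes that were called for sex in liver. Of 22 measured TGF-beta pathway genes, 4 fell in males and 0 rose: Tgfbr2, the type II receptor, with a log2 difference of -1.16, Acvrl1 with -0.82, the ligand Tgfb1 with -0.65 and the co-receptor Eng with -0.64. Their limma adjusted p ran from 0.0117 to 0.0450. Tgfb1 was 823 ± 179 (SD, n = 3) in WT females, 818 ± 26.9 in humanized females, 451 ± 102 in WT males and 605 ± 35.4 in humanized males. Of 19 matrix receptors, 4 fell: the integrin chains Itga9 with -0.74 and Itgb5 with -0.31, and the syndecans Sdc3 with -0.68 and Sdc1 with -0.55. Of 22 collagen-processing genes Colgalt2, a collagen galactosyltransferase, rose by 1.51 (limma adjusted p = 0.0312). Of 16 other proteases Ctss, cathepsin S, fell by 0.88 on the log2 scale. The single calls of the collagen-processing and protease lists were smaller shares than that of all genes.

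For genotype these lists had 0 calls. In fat over both sexes, 21 of 23 collagen-processing genes, 20 of 22 TGF-beta pathway genes and 17 of 21 matrix receptors were higher in humanized libraries, with medians of 0.23, 0.18 and 0.20 on the log2 scale. In liver TGF-beta pathway genes were higher in humanized males for 16 of 22 and lower in humanized females for 17 of 22, with medians of 0.25 and -0.37. The collagen-processing genes of liver did not follow, with 10 of 22 higher in males and 11 of 22 in females.

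The miR-29 family was read from the small RNA tables, which hold 21 liver libraries and 20 adipose libraries. Its annotated forms and forms with a shifted 5′ start made 26 features in liver, 15 of them tested, and 29 in adipose tissue, 22 of them tested. No miR-29 feature was called for genotype. The share of all features called was 0% (0 of 837) in liver for males, for females, over both sexes and between the sexes, and in adipose tissue 0.616% in males and 0% of 1298 in the other 3. At an unadjusted p under 0.05, limma found 1 in liver males and 2 over both sexes, and likewise 1 and 2 in adipose tissue, with 0 in females or between the sexes. The share of all features at that level was not computed, so nothing is read from these counts.

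Liver miR-29a-3p was 22135 ± 4134 (SD, n = 5) in WT females, 21293 ± 4152 (n = 5) in humanized females, 19231 ± 880 (n = 5) in WT males and 18860 ± 2988 (n = 6) in humanized males. In adipose tissue it was 56596 ± 8623 (n = 5), 67045 ± 10199 (n = 6), 51088 ± 18523 (n = 4) and 54182 ± 15429 (n = 5) in the same order. All groups overlapped in both tissues. The genotype difference over both sexes was -0.06 ± 0.08 (SE) in liver (limma adjusted p = 0.986) and 0.18 ± 0.14 in adipose tissue (adjusted p = 0.594). For miR-29c-3p it was -0.20 ± 0.14 in liver and 0.28 ± 0.15 in adipose tissue. The reads of miR-29b cannot be told apart between its copies of identical mature sequence.

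By sex, 2 miR-29 features fell in males in liver, where 9.2% of all features were called, and 0 were called in adipose tissue, where 10% were. Both were forms of miR-29a-3p that start 1 base away from the annotated start. The form written with a shift of -1 was 2574 ± 104 (SD, n = 5) in WT females, 2534 ± 292.1 (n = 5) in humanized females, 2226 ± 152 (n = 5) in WT males and 2137 ± 182 (n = 6) in humanized males. Its log2 difference was -0.23 ± 0.06 (SE, limma adjusted p = 0.0228), and that of the form with a shift of +1 was -0.31 ± 0.10 (adjusted p = 0.0454). A start shifted by 1 base moves the seed that is shown in capitals above. The annotated form of miR-29a-3p had a difference of -0.19 ± 0.08 that did not pass (limma adjusted p = 0.155).

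**Figure D5:**
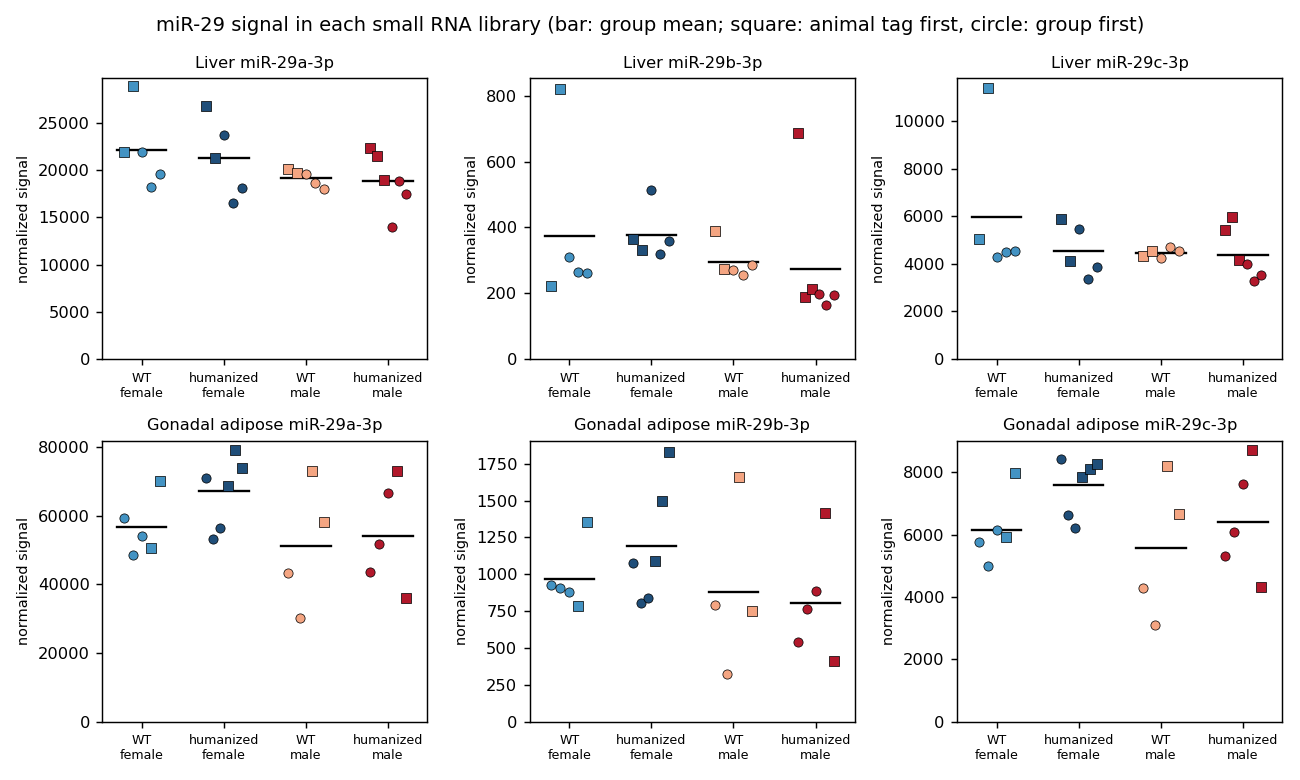
Normalized signal of miR-29a-3p, miR-29b-3p (the copy b-1) and miR-29c-3p in each small RNA library of liver (top) and gonadal adipose tissue (bottom), with a bar at the group mean and symbols for the form of the library name. The 4 groups overlap in each panel, and single libraries such as a WT female with 11384 for liver miR-29c-3p stand far from their group.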

How the data were processed

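The authors deposited normalized signal per gene or small RNA feature. DESeq2, STAR, Salmon, limma and the mm9 build are named in the submitters' processing notes, without versions or steps. The authors also deposited small RNA values on a regularized log2 scale after batch correction, used here as an alternative only. Depth in reads is not given for the mRNA tables, so the summed signal stands in its place. Liver mRNA libraries were made by ribosomal depletion (6) or polyA enrichment (6), per the labels' protocols. Preparation is known from these labels alone. The polyA libraries were replicates 2 and 3 of WT females and of WT males, replicate 2 of humanized females and replicate 3 of humanized males. Preparation was thus unbalanced by genotype, and the liver group values, library medians and overlaps take no account of it. No columns of other samples were present, and 0 pairs of libraries were identical.

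A pseudocount of 1 was added to the signal before taking log2, and features with a mean signal under 10 were left out. limma 3.58.1 (R 4.3.3) fitted 1 linear model per table over all 4 groups, with trended empirical Bayes variances. Its covariate was the preparation in liver mRNA and the form of the library name in small RNA, and adipose mRNA had none. A fold change on this scale understates the change of low genes. Adjusted p is Benjamini-Hochberg over all features tested, and 5 comparisons were made per table. Groups that share no range are called non-overlapping. Per comparison the text gives statistics for the called genes and, where fewer than 3 were called, mainly for the 4 with the smallest p in each direction. The genes and lists were chosen with earlier results of these data known.

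On simulated data with the spread of the same tables, for genotype in males the fit recovered 42% of shifts of 1 and 75% of shifts of 2 on the log2 scale in liver, and 31% and 65% in adipose tissue. For genotype across the sexes these shares were 65% and 85% in liver, and 53% and 83% in adipose tissue. The simulation drew each gene independently and planted 100 shifts of each size, which loosens the Benjamini-Hochberg cut-off. In the data the same comparisons called 5 genes each in liver, and 3 and 4 in adipose tissue. The shares can therefore overstate what the fit recovers in the data. Another gene overlaps 22 of the 52 genes in the annotation, a protein-coding one in 7 (Col4a1, Col4a2, Loxl3, Nid2, Timp1, Timp2 and Timp3), and whether counting used strand is not given in the sources used here. Alternatives were another pseudocount, filter or scaling, no covariate, 1 preparation only, a replicate block, and each library left out in turn. Whether replicate numbers pair libraries was checked by the correlation of same-numbered libraries' deviations from their group means. It was -0.09 to 0.08 in liver and 0.01 and 0.11 in adipose males. With preparation fitted, the liver correlations were -0.23 to 0.21, with mixed signs within each sex. Liver and adipose males were not taken as paired. In adipose females all 3 pairs correlated, at 0.17 to 0.19, a hint of pairing from the data and not from the labels. Deviations within a group of 3 sum to 0, so these correlations are not independent. Pairing entered only as an alternative, and the female differences, SE and p given above are unpaired.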

Additional observations from a re-analysis of the deposited data

Results flagged for a closer look

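Within groups of 4 to 10 small RNA libraries, the annotated miR-29 forms were searched for a library far from the rest of its group, by the gap to the nearest library over the group's range. Chance alone marks about 1 in 20 such groups. Over all tested miR-29 features 21 of 148 groups were marked. These are not separate chances, because miR-29b-1 and miR-29b-2 hold nearly the same reads and features of 1 library move together, so the count is not read against that rate. The 6 that concern the annotated forms of miR-29b-1 and miR-29c follow. Liver miR-29c-3p was 11384 in WT female replicate 2, with 5064 as the nearest value. Liver miR-29b-1-3p was 820.0 in the same library (nearest 309), 513 in humanized female replicate 3 (nearest 365), 388 in WT male replicate 1 (nearest 286) and 687 in humanized male replicate 1 (nearest 214). Adipose miR-29b-1-3p was 1355 in WT female replicate 11, with 927 as the nearest value. Each of these was the high end of its group.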

How the results depend on the processing

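Genotype comparisons of the matrix genes had 0 calls in each alternative that kept all libraries or 1 preparation. The called genes for sex in liver, 3 as reported, were 1 with no filter on low values, 5 with no covariate and 1 in polyA libraries alone. With 1 library left out in turn, the count was 1 to 6 for sex in liver, 0 to 1 between the sexes in liver, 0 to 2 for sex in adipose tissue, and 0 to 1 for adipose females and for adipose tissue over both sexes. The miR-29 features called, 2 in liver, were 1 with no filter, 0 with no covariate and 0 in libraries whose name puts the animal tag first, and 1 to 2 with a library left out. In adipose tissue 0 became 1 in libraries whose name puts the group first, and 0 to 1 with a library left out. The share of all features called was not computed for each of these alternatives, so the counts cannot be set against it. The cause of these shifts was not tested.

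The median log2 difference of the matrix genes kept its sign in all 17 alternatives in adipose tissue over both sexes (0.27 to 0.47), in males (0.27 to 0.63) and in females (0.18 to 0.50). In liver it did so in all 21 in males (0.03 to 0.38), in females (-0.41 to -0.18) and between the sexes (0.37 to 0.77). For sex it was -0.33 to -0.02 in liver, lowest in size in polyA libraries alone, and 0.05 to 0.29 in adipose tissue.

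None of the single genes that changed sign was called. In liver ribosomal depletion libraries alone, Col18a1 was 0.045 in males, and Col5a3 -1.19, Col4a2 0.053 and Fbln2 0.025 in females. There Thbs1 was -0.15 and Fbln1 0.060 over both sexes, and Col5a3 0.27 and Timp2 0.16 between the sexes. In polyA libraries alone, Col5a2 was -0.33 in females and Mmp2 0.28 between the sexes. Col5a3 in liver females was -0.038 with no covariate and -0.17 to 2.20 with a library left out. With a library left out in adipose tissue, Col5a3 was -0.70 to 0.075 and Timp3 -0.30 to 0.094 over both sexes, and Mmp12 was -5.44 to 0.15 and Sparc -0.53 to 0.051 in females.

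With the replicate number as a block, sex called 2 liver genes and 2 adipose genes, and the genotype comparisons called 0. The share of all genes called was not computed for these counts. In adipose females fitted alone, an alternative added after the data were seen, 0 of the 52 genes were called with or without the block. At an unadjusted p under 0.05, limma found 12 higher and 1 lower with the block, beside 7.02% of all genes. The fit without the block found 9 higher and 0 lower at that level, beside 5.71% of all genes.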
